A study of Mus musculus with 18 samples.

Results

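The 10 transcription factor genes described here steer follicle epithelium into the hair germ and the hair-forming matrix, and they were followed through sorted cells of mouse skin. They are Cux1, Mycn, Myc, Msx1, Msx2, Hoxc13, Foxn1, Dlx3, Gata3 and Ovol1, taken as a named list of 10 genes and found by symbol. All 10 are among the 52958 gene symbols of the dermal papilla (DP) tables and the 27933 of the hair follicle stem cell (HFSC) tables, and all 10 passed the filter on low counts in both cell types. RNA was sequenced in 18 bulk libraries of cells sorted from female mice, in 9 groups of 2. Adrenalectomy (ADX), the removal of the glands that make corticosterone, was set against a sham operation (Sham) in wild-type C57BL/6 mice, in DP and in HFSC, and a further HFSC group had ADX and corticosterone feeding (ADX+CORT). The other experiment, on a 129/C57BL/6 background, set mice of genotype Pdgfra-CreER; GR fl/fl (GR KO) against wild-type mice (Control), again in DP and in HFSC, and mice of both genotypes received tamoxifen injections over 6 days. GR is the glucocorticoid receptor, encoded by Nr3c1, and the Pdgfra promoter drives Cre in dermal mesenchymal cells, so the HFSC of GR KO mice are neighbours of the targeted cells. The ages of the mice and whether the 2 libraries of a group came from separate animals are not given in the sources used here, so p-values measure the spread between libraries, which may be technical.

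At the start of a hair cycle, cells of the secondary hair germ divide first and give rise to the matrix, whose cells then take up the lineages of the hair shaft and the inner root sheath. MYC-family proteins drive growth and division in these cells, Msx1 and Msx2 act downstream of BMP signals, Hoxc13, Foxn1 and Dlx3 direct the differentiation of the shaft, and Cux1 and Gata3 act in the inner root sheath lineage. Stem cells of the resting bulge are held apart from this programme until signals from the dermal papilla, a cluster of mesenchymal cells under the germ, start a new cycle.

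Depth ranged from 6194415 to 13941628 estimated reads in the 8 DP libraries and from 14067139 to 33014976 reads in the 10 HFSC libraries. Values are given in CPM, read counts relative to library sizes scaled by the TMM method of edgeR, and DP and HFSC values are not compared with each other because the authors counted them in different ways. The targeted gene Nr3c1 stood at 137 and 111 CPM in GR KO DP, against 671 and 978 CPM in Control DP, and at 243 and 170 CPM in GR KO HFSC, against 257 and 338 CPM in Control HFSC. The sum of 13 stem cell markers, among them Cd34 and Krt15, was 22352 to 56012 CPM across the HFSC libraries, and the sum of 13 dermal papilla markers was 2345 to 5738 CPM across the DP libraries. Genes were tested with edgeR's quasi-likelihood test, 15231 in HFSC and 23463 in DP, and a gene is said to have risen or fallen where its Benjamini-Hochberg adjusted p is under 0.05.

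The loci are given on GRCm38 (mm10) in the GENCODE M21 annotation, which lists all 10 as protein-coding. Cux1 lies on the minus strand of chromosome 5 from 136248135 to 136567490 and Msx1 on the same strand from 37820485 to 37824583. Mycn lies on chromosome 12 from 12936093 to 12941914 (minus strand), Msx2 on chromosome 13 from 53466884 to 53473074 (minus strand), and Gata3 on chromosome 2 from 9857078 to 9890034 (minus strand). Myc and Hoxc13 are both on the plus strand of chromosome 15, from 61985391 to 61990374 and from 102921103 to 102928814. Foxn1 (minus strand, 78357577 to 78386558) and Dlx3 (plus strand, 95120119 to 95125296) are on chromosome 11, and Ovol1 is on chromosome 19 from 5549136 to 5560646 (minus strand). The kit does not mark strand, and exons of Cux1, Gata3 and Ovol1 overlap those of other genes: Gm16599 on the opposite strand of Cux1, 9230102O04Rik on the same and Gm13256 on the opposite strand of Gata3, and 2 genes on the opposite strand of Ovol1. The Cux1 locus also encodes CASP, a Golgi protein without the homeodomain, which a gene-level count cannot tell from CUX1.

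Upstream sequences are shown for Cux1 and Mycn, the members that rose in a comparison, with matches to the letters TTTNGCGC in capitals. This is a motif of the E2F factors, which act on genes of DNA replication, and it was searched on both strands after the sequences had been read. Among the 6 members that the RefSeq promoter table holds (GRCm38.p6), 2 had a match in the 250 bases before the gene's start, as did 1.13% of all 32851 promoters of that length. Because the search followed the reading of the sequences, these shares are a description and no test of enrichment. The first stretch, chr5:136566031-136566060 on the minus strand, lies 79 to 50 bases before the RefSeq start of Cux1, in a 5′ exon of another Cux1 transcript of GENCODE. Other GENCODE transcripts with DP reads start further upstream, among them Cux1-201 (136567445), Cux1-211 (136567264) and Cux1-213 (136567263). The stretch therefore lies within their span and not before it. The second, chr12:12941915-12942086 on the minus strand, runs from 250 to 79 bases before the RefSeq start of Mycn and ends where the GENCODE exon begins; it holds 3 matches, of which 2 overlap.
Cux1: ctgtcccccttTTTTGCGCccggggacttc
Mycn: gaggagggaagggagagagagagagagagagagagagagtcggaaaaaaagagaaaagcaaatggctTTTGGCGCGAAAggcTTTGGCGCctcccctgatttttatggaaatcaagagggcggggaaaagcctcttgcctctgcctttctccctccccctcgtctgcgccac
No match was found in the 6 members' windows for the full glucocorticoid response element (0.387% of all promoters) or for the E-box CACGTG bound by MYC and its partners (6.02%), which says only that these letters are not in these windows. The windows held 62.8% G and C in Cux1 and 54.8% in Mycn, and the median over all promoters was 52.4%. The dinucleotide CG, which the E2F letters contain, occurred 18 times in Cux1 and 11 times in Mycn, against a median of 6.

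In HFSC the 10 genes spanned a wide range of expression. Per kilobase of exon, and averaged over the 10 libraries, Myc was highest at 53.2 CPM per kb, followed by Gata3 at 43.7 CPM per kb. Ovol1 (15.9 CPM per kb) and Dlx3 (14.8 CPM per kb) came next, with library ranges of 9.07 to 30.3 and 3.69 to 28.9 CPM per kb that overlap almost wholly. Msx2 (9.53 CPM per kb) and Hoxc13 (8.97 CPM per kb) likewise did not differ beyond their spread, and Mycn (5.66 CPM per kb) and Msx1 (3.84 CPM per kb) followed. The order differed between groups: in GR KO, Mycn averaged 13.1 CPM per kb, above Msx2 (8.11) and Hoxc13 (7.57), and in ADX+CORT Gata3 (59.6 CPM per kb) and Myc (59.1 CPM per kb) were level within their spread. Foxn1 (1.96 CPM per kb) and Cux1 (1.82 CPM per kb) stood at the bottom, Cux1 being divided by 20024 bases of merged exons. Foxn1 was also the gene nearest to no detection, with 0 reads in 1 Control library.

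**Figure D1:**
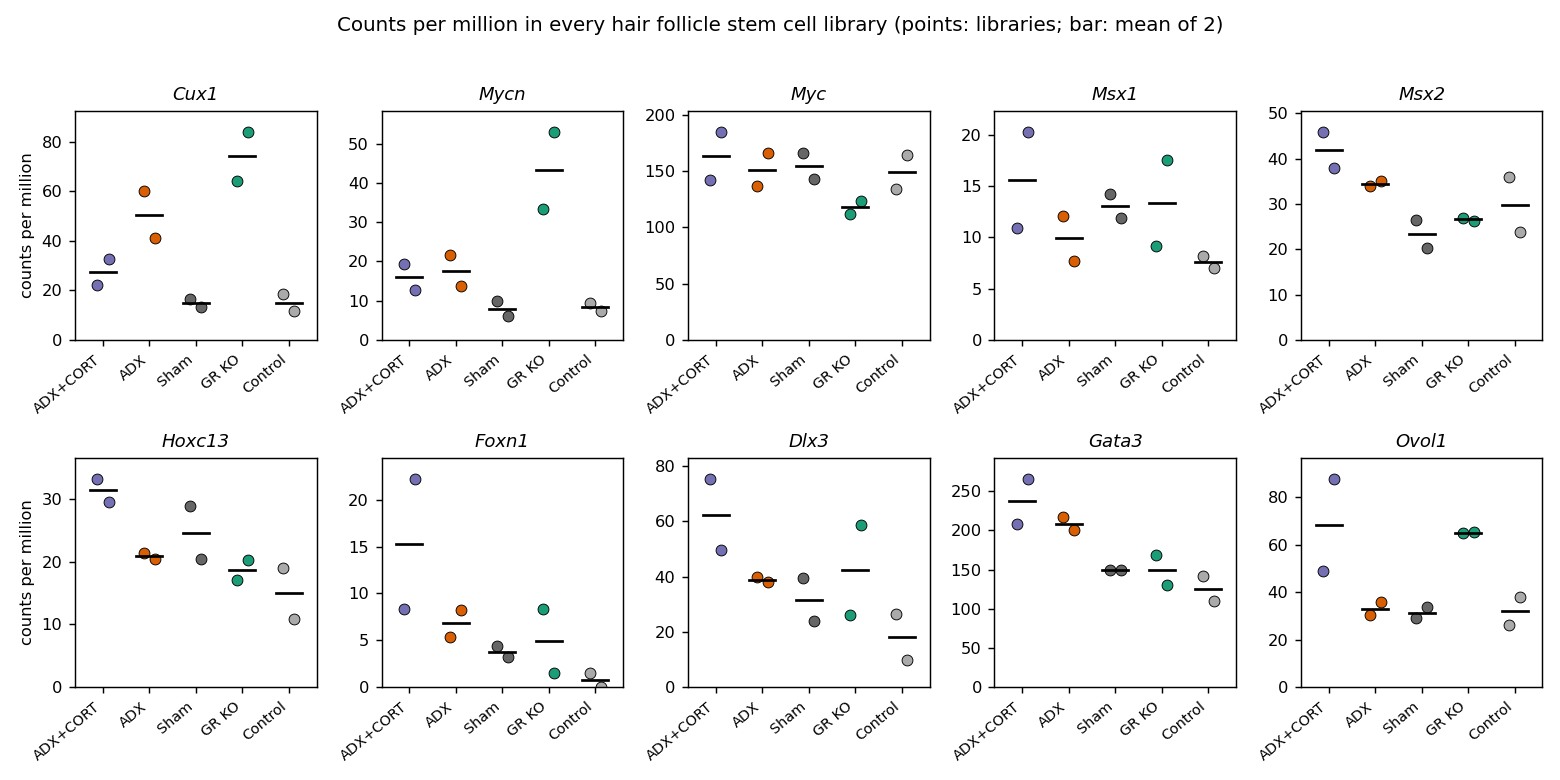
CPM of each of the 10 genes (vertical axes, each from 0) in the 10 HFSC libraries, grouped along the horizontal axes as ADX+CORT, ADX, Sham, GR KO and Control; points are libraries and bars the mean of 2. Cux1 stood at 60.1 and 41.2 CPM in ADX and at 64.2 and 84.2 CPM in GR KO, above every Sham and Control library, while the Myc points of most groups overlap.

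Cux1, a cut-family homeobox gene whose mutation disturbs hair growth in mice, rose in HFSC of both experiments. It stood at 60.1 and 41.2 CPM in ADX, against 16.5 and 13.1 CPM in Sham, and at 64.2 and 84.2 CPM in GR KO, against 18.3 and 11.7 CPM in Control. In neither pair did the groups overlap. Cux1 averaged 50.6 ± 13.3 CPM in ADX and 14.8 ± 2.38 CPM in Sham, and 74.2 ± 14.1 CPM in the GR KO libraries and 15.0 ± 4.73 CPM in Control (SD over 2 libraries each). For ADX against Sham the log2 fold change was 1.77 (SE 0.33) with an edgeR adjusted p of 0.0475, and for GR KO against Control it was 2.31 (SE 0.33) with an edgeR adjusted p of 0.0281. The ADX call was lost without the first Sham library (edgeR adjusted p = 0.222), without the second Sham library (0.223), without the first ADX library (0.291) and with the replicate number as a block (0.0680). The GR KO call was lost without the second Control library (edgeR adjusted p = 0.151), and the log2 fold change stayed above 0 in every setting tried for both comparisons.

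Mycn, a MYC-family gene that hedgehog signals switch on in growing follicles, rose in HFSC of GR KO mice. It had 33.4 and 53.1 CPM in GR KO, against 9.30 and 7.32 CPM in Control, and 21.7 and 13.7 CPM in ADX, against 9.87 and 6.07 CPM in Sham. Both GR KO libraries lay above every other HFSC library, and the lower ADX library lay above the higher Sham library. The log2 fold change was 2.38 (SE 0.40) in GR KO against Control, with an edgeR adjusted p of 0.0327, and 1.14 (SE 0.40) in ADX against Sham, with an edgeR adjusted p of 0.192. The GR KO call was lost without the first Control library (edgeR adjusted p = 0.0663), the second Control library (0.196) or the second GR KO library (0.0794).

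Cux1 was thus the 1 member of 10 that rose in ADX HFSC and none fell, beside 0.295% of all genes called in that comparison, 0.282% that rose and 0.0131% that fell. In GR KO HFSC 2 of 10 members rose and none fell, beside 0.985% of all genes called, 0.67% that rose and 0.315% that fell. At an unadjusted p under 0.05 the counts were 2 of 10 in ADX (15.2% of all genes) and 5 of 10 in GR KO (13.1%). DESeq2 called 1 member in ADX and 3 in GR KO, Ovol1 being the added one. The 10 members were chosen with earlier results of these data known. Their shares, here and below, are therefore descriptions and no test of the list. The median log2 fold change of the 10 members was 0.39 in ADX HFSC and 0.92 in GR KO HFSC, against 0 and 0.00 over all genes tested. Libraries that do not overlap are no rarity with 2 against 2. In ADX, 49.4% of all genes had none, 25.5% higher and 23.9% lower, and 5 of 10 members lay wholly above Sham and 0 below. In GR KO, 38.5% of all genes had none, 19.3% higher and 19.1% lower, and 4 of 10 members lay wholly above Control and 1, Myc, below. In bulk libraries a larger share of cells that express a gene and more of its RNA per cell cannot be told apart.

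**Figure D2:**
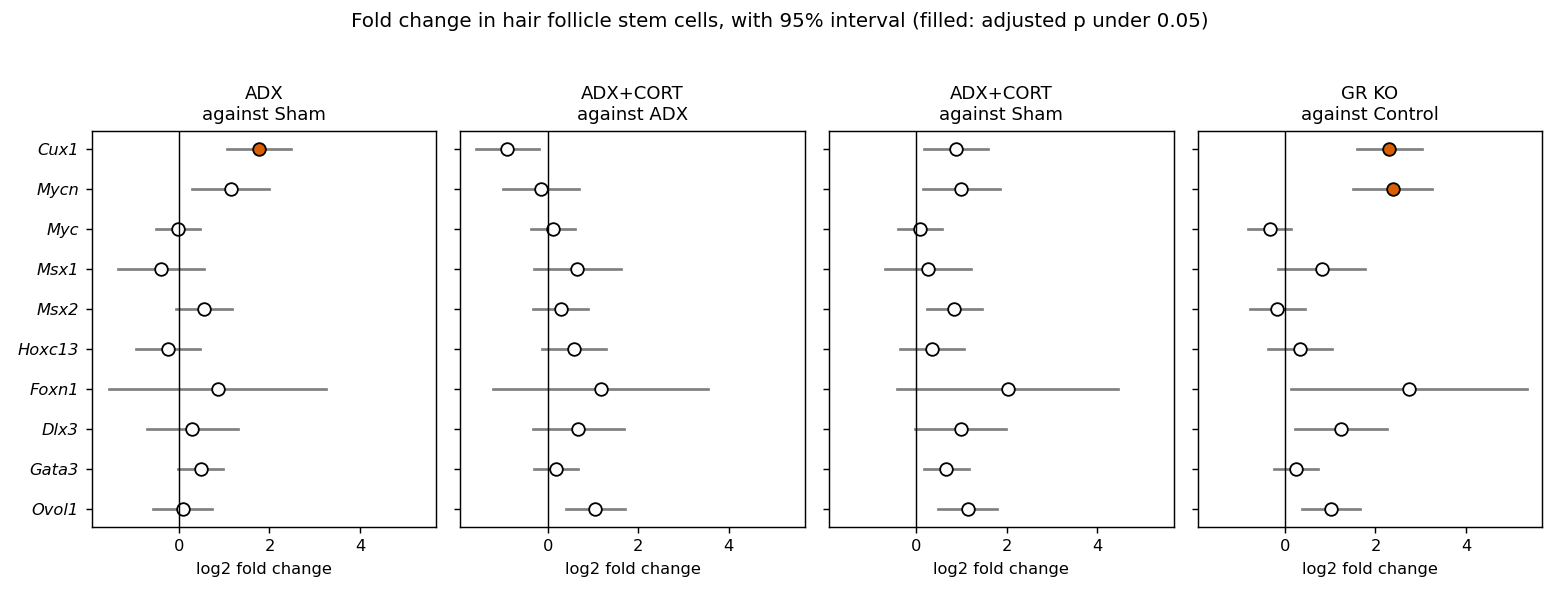
Log2 fold change (horizontal axes) of the 10 genes (vertical axis) in the 4 HFSC comparisons, with 95% intervals as lines; filled points passed the edgeR adjusted p threshold of 0.05. Cux1 at 1.77 in ADX against Sham and Cux1 at 2.31 and Mycn at 2.38 in GR KO against Control are the filled points.

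Myc itself, the growth-driving gene that pushes epidermal stem cells towards division and differentiation when overexpressed, did not pass the test in any HFSC comparison. Its libraries held 137 and 166 CPM in ADX, against 166 and 143 CPM in Sham, and 112 and 124 CPM in GR KO, against 134 and 165 CPM in Control. The ADX and Sham values overlap, and both GR KO values lie below both Control values. The 95% interval of the log2 difference ran from -0.51 to 0.46 in ADX against Sham and from -0.83 to 0.14 in GR KO against Control, which leaves out increases of the size seen for Cux1 and Mycn.

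Ovol1 is a zinc finger repressor that acts below Wnt signalling and represses Myc in mouse skin, and it had the next smallest p after Cux1 and Mycn in GR KO HFSC. It had 64.8 and 65.4 CPM in GR KO, against 26.3 and 37.9 CPM in Control (log2 fold change 1.02, SE 0.30, edgeR adjusted p = 0.136), and the groups do not overlap. DESeq2 put the adjusted p of this difference at 0.0406. In ADX it had 30.2 and 35.7 CPM, against 28.9 and 33.5 CPM in Sham, and these values overlap.

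Of the homeobox pair below BMP signals, Msx1 had 9.19 and 17.5 CPM in GR KO, against 8.18 and 6.99 CPM in Control, and 12.1 and 7.72 CPM in ADX, against 14.2 and 11.9 CPM in Sham. Msx2 had 26.8 and 26.3 CPM in GR KO, against 36.0 and 23.8 CPM in Control, and 33.9 and 35.0 CPM in ADX, against 26.6 and 20.3 CPM in Sham. The edgeR adjusted p of these 4 differences lay between 0.373 and 0.891. Msx1 was wholly above Control in GR KO and Msx2 wholly above Sham in ADX, and the remaining pairs overlapped.

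No shaft regulator passed the test, though Dlx3 and Foxn1 were called in GR KO when no filter on low counts was used. Hoxc13, which controls hair keratin genes, had 17.0 and 20.2 CPM in GR KO, against 19.0 and 10.9 CPM in Control, and 21.4 and 20.4 CPM in ADX, against 28.8 and 20.3 CPM in Sham, overlapping in both pairs. Dlx3, needed for shaft and root sheath formation, had 26.0 and 58.8 CPM in GR KO, against 26.3 and 9.62 CPM in Control, and 39.7 and 38.1 CPM in ADX, against 39.5 and 23.8 CPM in Sham. One GR KO library carries the higher Dlx3 mean, and the edgeR adjusted p was 0.268 (log2 fold change 1.24, SE 0.47). Foxn1, the gene mutated in nude mice, had 8.33 and 1.45 CPM in GR KO, against 1.53 CPM and 0 reads in Control, and 5.34 and 8.25 CPM in ADX, against 4.35 and 3.18 CPM in Sham. Its fitted log2 fold change in GR KO had an SE of 1.20 and an edgeR adjusted p of 0.359, with the groups overlapping.

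Gata3, which specifies the inner root sheath and is also a T cell and epidermal gene, had 168 and 130 CPM in GR KO, against 142 and 109 CPM in Control. In ADX it had 217 and 200 CPM, against 149 and 150 CPM in Sham, which is 0.48 higher on the log2 scale (SE 0.23, edgeR adjusted p = 0.341) with no overlap. The summed level of 9 T and innate lymphoid markers in the files was 17.0 and 11.5 CPM in ADX, against 0.705 and 6.36 CPM in Sham, and 36.9 and 47.9 CPM in GR KO, against 39.1 and 15.6 CPM in Control. Of 8 tested, 7 were higher in ADX and edgeR called none, with 1 at an unadjusted p under 0.05 and 1 called by DESeq2; their part in the Gata3 values was not tested.

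Corticosterone feeding after adrenalectomy was compared with adrenalectomy alone and with sham surgery; the 3 surgery comparisons share libraries, so their values are set side by side and not counted as separate evidence. Cux1 stood at 22.0 and 32.6 CPM in ADX+CORT, below both ADX libraries (60.1 and 41.2 CPM) and above both Sham libraries (16.5 and 13.1 CPM). Its log2 fold change was -0.89 (SE 0.32, edgeR adjusted p = 0.154) against ADX and 0.88 (SE 0.32, edgeR adjusted p = 0.768) against Sham, and neither passed the test. Mycn had 19.3 and 12.6 CPM in ADX+CORT, overlapping ADX and above Sham. Neither comparison called any member: edgeR gave 0 of 10 in each, beside 0% of all genes called, with 2 of 10 against ADX (19.3% of all genes) and 5 of 10 against Sham (6.09%) at an unadjusted p under 0.05. DESeq2 called 1 member against ADX, Ovol1, and 0 against Sham.

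Ovol1 had 49.0 and 87.8 CPM in ADX+CORT, above both ADX libraries (30.2 and 35.7 CPM) and both Sham libraries (28.9 and 33.5 CPM). Its log2 fold change against ADX was 1.05 (SE 0.30, edgeR adjusted p = 0.0851, DESeq2 adjusted p = 0.0245). Against Sham it was 1.13 (SE 0.30, edgeR adjusted p = 0.494). All 10 members had a higher fitted mean in ADX+CORT than in Sham, with a median log2 fold change of 0.86 against 0.01 over all genes, and 8 of 10 had both ADX+CORT libraries above both Sham libraries, which 21.5% of all genes did (40.7% in either direction, 19.1% below). The 8 were Cux1, Mycn, Msx2, Hoxc13, Foxn1, Dlx3, Gata3 and Ovol1. Such a shift was not particular to the members. All 12 genes of differentiated epidermis and upper follicle were higher in ADX+CORT than in Sham (median 0.92). So were all 7 sebaceous gland genes (median 1.90). The median was -0.44 for the 20 tested hair shaft and inner root sheath genes and -0.07 for 13 stem cell markers.

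All members but Cux1 and Mycn had their highest single HFSC library in ADX+CORT. Hoxc13 stood at 33.2 and 29.5 CPM, against 21.4 and 20.4 CPM in ADX and 28.8 and 20.3 CPM in Sham. Dlx3 stood at 75.4 and 49.5 CPM, against 39.7 and 38.1 CPM in ADX and 39.5 and 23.8 CPM in Sham. Foxn1 stood at 8.38 and 22.3 CPM, Gata3 at 208 and 266 CPM and Msx2 at 45.9 and 38.0 CPM in ADX+CORT. The libraries of Hoxc13, Dlx3, Foxn1 and Msx2 lay above both ADX and Sham without overlap, none of these differences passed the test, and the smallest edgeR adjusted p among the 4 genes was 0.350 against ADX and 0.721 against Sham. Against ADX, 5 of 10 members lay wholly above and 1, Cux1, below, where 52.6% of all genes did not overlap, 26.7% higher and 25.8% lower. Msx1 (10.9 and 20.3 CPM) and Myc (142 and 185 CPM) overlapped both groups.

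Markers of dividing cells were summed beside Cux1 and Mycn. The summed level of 14 cycling-cell genes was 1323 and 561 CPM in ADX, against 309 and 328 CPM in Sham, and 1003 and 2003 CPM in GR KO, against 312 and 296 CPM in Control. In ADX+CORT it was 457 and 261 CPM, while Mycn in ADX+CORT overlapped ADX (log2 fold change -0.15, SE 0.39, edgeR adjusted p = 0.892). All 14 were higher in ADX than in Sham (median log2 fold change 2.15) and 1, Birc5, rose; all 14 were higher in GR KO than in Control (median 2.85) and 8 rose, a count that falls to 1 without the first Control or second GR KO library and to 0 without the second Control library. Against ADX, all 14 were lower in ADX+CORT (median -2.03), and none passed the edgeR test, while 11 had an unadjusted p under 0.05 and DESeq2 called 8.

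The summed level of the 13 stem cell markers was 22352 and 33318 CPM in ADX, against 44596 and 49381 CPM in Sham, and 23969 and 36364 CPM in GR KO, against 48017 and 56012 CPM in Control. In ADX all 13 were lower (median log2 fold change -0.54) and edgeR called none, with 6 at an unadjusted p under 0.05 and 3 called by DESeq2. In GR KO 8 of 13 were lower (median -0.15) and 1 fell, Cd34, a surface marker of the bulge (log2 fold change -1.49, SE 0.29, edgeR adjusted p = 0.0384). The 12 genes of differentiated epidermis and upper follicle summed to 16149 and 13800 CPM in GR KO, against 5448 and 8197 CPM in Control, and to 7693 and 8659 CPM in ADX, against 4436 and 6337 CPM in Sham. In ADX+CORT, where all members but Cux1 and Mycn had their highest library, those 12 genes summed to 7759 and 9736 CPM. The 7 sebaceous gland genes summed to 158 and 355 CPM in ADX+CORT, against 182 and 198 CPM in ADX and 99.2 and 161 CPM in Sham. Of these 12, the barrier gene Cst6 rose in ADX (1 of 12), and Cst6 and the upper follicle keratin Krt79 rose and Lor, a cornified envelope gene, fell in GR KO. The 13 dermal papilla genes summed to 131 and 160 CPM in GR KO HFSC, against 273 and 341 CPM in Control HFSC; all 7 tested were lower and 1, Crabp1, fell. The 8 dermal fibroblast genes summed to 55.3 and 83.5 CPM in GR KO HFSC, against 142 and 118 CPM in Control HFSC, with 7 of 8 lower and none called by edgeR, 4 at an unadjusted p under 0.05 and 2 called by DESeq2. In ADX HFSC the dermal papilla genes summed to 84.7 and 103 CPM, against 134 and 110 CPM in Sham. Gene by gene they went the other way: 6 of the 7 tested were higher in ADX and 1 lower (median log2 fold change 3.16). Of these 7, edgeR called none, with 5 at an unadjusted p under 0.05 and 3 called by DESeq2. The fibroblast genes summed to 199 and 186 CPM in ADX, against 94.6 and 164 CPM in Sham. The 8 myeloid and Langerhans genes summed to 2554 to 3075 CPM in GR KO HFSC and 2648 to 2857 CPM in Control HFSC. They summed to 123 to 175 CPM in ADX, 59.7 to 79.8 CPM in Sham and 55.5 to 133 CPM in ADX+CORT HFSC. Immune RNA thus differed between the 2 experiments. In ADX 7 of these 8 were higher than in Sham and edgeR called none, with 5 at an unadjusted p under 0.05 and 3 called by DESeq2. No gene of the stem cell, cycling or epidermal lists was at 0 in any HFSC library. The part of these markers in the values of Cux1, Mycn and the other members was not tested.

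**Figure D3:**
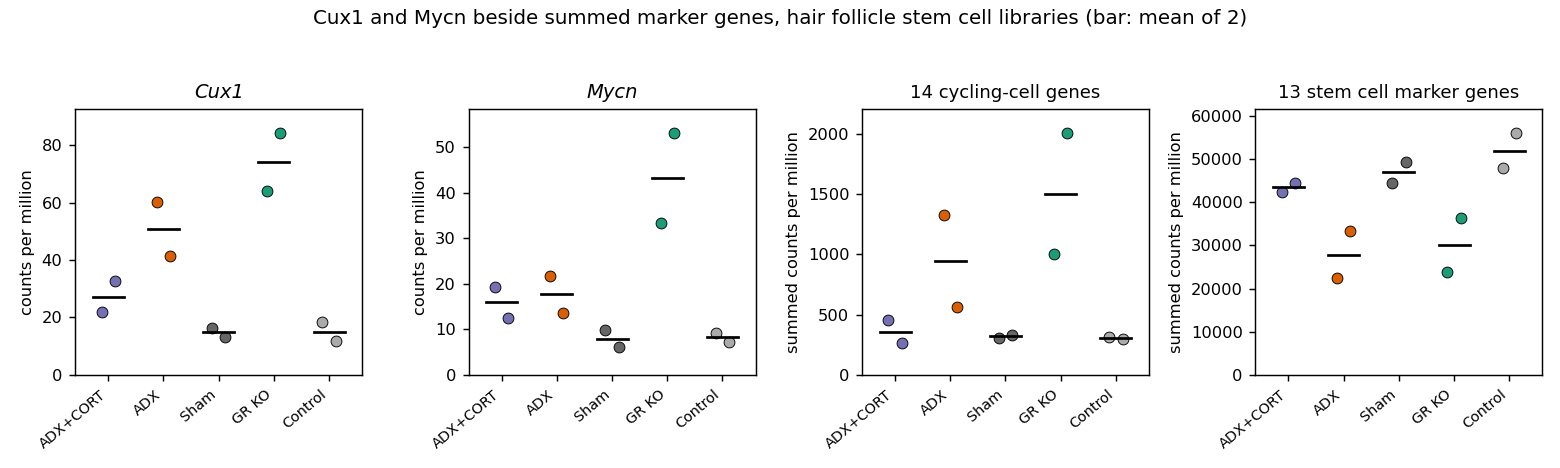
From left to right: Cux1 and Mycn in CPM, and the summed CPM of 14 cycling-cell genes and of 13 stem cell markers (vertical axes, each from 0), by group in the 10 HFSC libraries; points are libraries and bars the mean of 2. The cycling-cell sum was 561 to 1323 CPM in ADX and 1003 to 2003 CPM in GR KO, against 296 to 328 CPM in Sham and Control, and the stem cell sum was lowest in ADX and GR KO.

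Among 16 tested paralogs of the members, 1 rose in GR KO HFSC. This was Mycl, the remaining MYC-family gene, at 32.9 and 30.8 CPM in GR KO, against 8.18 and 4.99 CPM in Control (log2 fold change 2.28, SE 0.35, edgeR adjusted p = 0.0299). The call was lost without the second Control library (edgeR adjusted p = 0.157). Mycl had 27.6 and 37.2 CPM in ADX+CORT, 22.9 and 17.9 CPM in ADX and 9.05 and 11.7 CPM in Sham, and the 3 groups do not overlap. The ADX difference from Sham was 0.98 on the log2 scale (SE 0.34, edgeR adjusted p = 0.189). Of the GATA paralogs, Gata6, a gene of the upper follicle and sebaceous duct, had 45.6 and 18.1 CPM in GR KO, against 10.9 and 7.26 CPM in Control (edgeR adjusted p = 0.138).

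Genes that MYC proteins act with or on showed no call by edgeR in HFSC. Of 11 partners and antagonists, 0 passed in ADX and 0 in GR KO, with 2 at an unadjusted p under 0.05 in each; DESeq2 called 0 and 1. The log2 fold change of Mxd3, an antagonist found in dividing cells, was 2.19 in ADX (SE 0.90, edgeR adjusted p = 0.267) and 2.32 in GR KO (SE 0.90, edgeR adjusted p = 0.277). That of Mxi1, another antagonist, was -0.81 in GR KO (SE 0.24, edgeR adjusted p = 0.149). Of 26 growth genes that MYC activates, edgeR called 0 in ADX and 0 in GR KO, with 8 and 7 at an unadjusted p under 0.05 and 2 called by DESeq2 in each. Their median log2 fold change was -0.24 in ADX and 0.40 in GR KO, and 11 of 26 were higher in ADX and 21 of 26 in GR KO. Npm1, a nucleolar protein, had 308 and 268 CPM in ADX, against 158 and 165 CPM in Sham (log2 fold change 0.84, SE 0.20, edgeR adjusted p = 0.0863).

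Of 30 hair shaft and inner root sheath genes 20 were tested in HFSC. In ADX 14 were higher than in Sham and 5 lower (median log2 fold change 0.38). In GR KO 12 were higher than in Control and 8 lower (median 0.34). Against ADX, 5 were higher and 15 lower in ADX+CORT (median -1.02). The list summed to 144 to 238 CPM in ADX and 143 to 146 CPM in Sham. It summed to 126 to 156 CPM in GR KO and 123 to 164 CPM in Control, which overlap. By edgeR 1 gene rose in each experiment. This was Krt35, a keratin of the hair shaft, at 9.70 and 4.45 CPM in ADX, against 0 and 0.0706 CPM in Sham (edgeR adjusted p = 0.0455), and 4.37 and 5.02 CPM in GR KO, against 0.0511 and 0.0333 CPM in Control (edgeR adjusted p = 0.0367). In ADX+CORT it stood at 0.0531 and 0 CPM. Krt35 passed the filter on low counts through the groups where it was high, and its ADX call was lost without either Sham library or the first ADX library, and its GR KO call without either Control library or the second GR KO library. The root sheath keratins Krt25 (18.6 and 0.526 CPM in ADX, against 1.12 and 0.848 CPM in Sham) and Krt71 (48.9 and 6.49 CPM in ADX, against 10.6 and 4.59 CPM in Sham) were high in 1 ADX library. In GR KO they had 0.910 and 0.780 CPM and 8.46 and 7.91 CPM. The log2 fold change in ADX against Sham was 3.27 for Krt25 and 1.86 for Krt71. It exceeded that in GR KO against Control by 3.25 for Krt25 (SE 1.69, edgeR adjusted p = 0.531). For Krt71 it did so by 2.66 (SE 1.01, edgeR adjusted p = 0.412).

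Of 21 signals of the hair germ and early growth phase 16 were tested, and edgeR called 0 in ADX and 0 in GR KO, with 2 and 7 at an unadjusted p under 0.05 and 0 and 2 called by DESeq2. In ADX 9 were higher and 6 lower (median log2 fold change 0.12), and in GR KO 6 were higher and 10 lower (median -0.21). The list summed to 405 to 571 CPM in GR KO and 465 to 493 CPM in Control. It summed to 407 to 411 CPM in ADX and 391 to 448 CPM in Sham. Ptch1, the receptor and a target of hedgehog signalling, had a log2 difference of 2.08 in GR KO (SE 0.50, edgeR adjusted p = 0.0668) and 0.86 in ADX (SE 0.49, edgeR adjusted p = 0.427). Bmp2 had -1.35 in GR KO (SE 0.37, edgeR adjusted p = 0.111) and -0.97 in ADX (SE 0.36, edgeR adjusted p = 0.226). Of 19 other transcription factors of the hair lineages 18 were tested, with 0 called by edgeR in ADX and 0 in GR KO, 4 and 6 at an unadjusted p under 0.05, and 0 and 2 called by DESeq2. Grhl3, an epidermal barrier factor, had the smallest p of these in GR KO (log2 fold change 1.58, SE 0.38, edgeR adjusted p = 0.0680).

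Whether a member moved differently after surgery and after GR deletion was tested as the difference of the log2 fold changes, ADX against Sham minus GR KO against Control. In HFSC edgeR called 0 of 10 members, beside 0% of all genes, with 2 of 10 (10.6% of all genes) at an unadjusted p under 0.05 and 0 called by DESeq2. The difference was -1.24 for Mycn (SE 0.55, edgeR adjusted p = 0.459), -0.94 for Ovol1 (SE 0.42, edgeR adjusted p = 0.460) and -0.54 for Cux1 (SE 0.45, edgeR adjusted p = 0.708). The Mycn rise in GR KO alone is therefore not shown to differ from its ADX value.

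Cux1 and Mycn varied together across the 10 HFSC libraries, with a Pearson r of 0.91 and a Spearman rho of 0.94 of their log2 CPM; libraries of a group share their treatment and depths differ, so this is a description. Among tested genes with a mean of at least 5 CPM, those most like Cux1 were Slc16a7, a monocarboxylate transporter (r = 0.948), Lin9, a subunit of a cell-cycle gene complex (r = 0.943), and Kif15, a mitotic kinesin (r = 0.941). Those most like Mycn were Cd44, the hyaluronan receptor (r = 0.952), Ncapg, a condensin subunit (r = 0.944), and Pask (r = 0.942). Myc was followed by Sertad3, Clta and B3galt4 (r = 0.960 to 0.914), and Ovol1 by Rhov and Mid1ip1 (r = 0.938 and 0.929). Gata3 was followed by Fnbp1, the epidermal keratin Krt1 and Fam189a2 (r = 0.944 to 0.914), and Foxn1 by Sept8, Nipal2 and Casz1 (r = 0.959 to 0.950). Hoxc13 had Zfp385a, Zdhhc9 and Syt9 (r = 0.960 to 0.950), Dlx3 had Atxn7l3, Cherp and Tmem65 (r = 0.934 to 0.918), Msx1 had Gna15, Tead3 and Zfp668 (r = 0.912 to 0.876), and Msx2 had Rhob, Dcaf5 and Kbtbd2 (r = 0.931 to 0.911).

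In the dermal papilla no member rose or fell in either comparison. In ADX against Sham edgeR called 0 of 10, beside 0.017% of all genes (0.0128% rose and 0.00426% fell), with 2 of 10 (11.7% of all genes) at an unadjusted p under 0.05 and 0 called by DESeq2. In GR KO against Control it called 0 of 10, beside 1.54% of all genes (0.767% rose and 0.771% fell), with 0 of 10 (15.2% of all genes) at an unadjusted p under 0.05 and 0 called by DESeq2. The 2 with a small unadjusted p in ADX were Cux1 and Myc. Cux1 had 48.4 and 49.7 CPM in ADX, against 74.7 and 98.4 CPM in Sham, a log2 difference of -0.82 (SE 0.27, edgeR adjusted p = 0.303), and the groups do not overlap. In GR KO it had 63.9 and 61.8 CPM, against 65.3 and 75.2 CPM in Control, with a 95% interval of the log2 difference from -0.75 to 0.43.

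Myc had 9.03 and 6.33 CPM in ADX DP, against 15.6 and 18.04 CPM in Sham DP, a log2 difference of -1.13 (SE 0.37, edgeR adjusted p = 0.303). It had 48.9 and 41.0 CPM in GR KO DP, against 29.6 and 26.0 CPM in Control DP, a log2 difference of 0.69 (SE 0.35, edgeR adjusted p = 0.393). Neither pair overlaps, and the directions are opposite. Over all genes, 43.3% did not overlap in ADX (23.9% higher, 19.4% lower), where 1 member was wholly higher and 4 lower. In GR KO 51.6% did not overlap (31.6% higher, 20% lower), where 3 members were wholly higher and 2 lower. The difference of these fold changes was -1.82 (SE 0.51) with an edgeR adjusted p of 0.123; no member's difference passed in DP, beside 0.477% of all genes (0.128% above 0 and 0.349% below), with 1 of 10, Myc (15.3% of all genes), at an unadjusted p under 0.05 and 0 called by DESeq2. Beside these values, 8 dermal fibroblast genes summed to 66233 and 75886 CPM in GR KO DP, against 24830 and 15830 CPM in Control DP, and to 21498 and 20194 CPM in ADX DP, against 28388 and 34950 CPM in Sham DP. The 14 cycling-cell genes summed to 287 and 189 CPM in GR KO DP, against 121 and 99.3 CPM in Control DP, and to 286 and 141 CPM in ADX DP, against 116 and 126 CPM in Sham DP. Of the 14, 13 were higher in GR KO (median log2 fold change 2.57) and 12 in ADX (median 1.74); edgeR called none, with 9 and 4 at an unadjusted p under 0.05, and DESeq2 called 7 and 1. The 8 myeloid and Langerhans genes summed to 42.9 CPM in 1 GR KO DP library and 2929 CPM in the other, against 192 to 375 CPM in Control DP. They summed to 343 to 361 CPM in ADX DP and 256 to 302 CPM in Sham DP. The part of these lists in the Myc values was not tested. Scaling by median of ratios moved the median of this difference over all genes by 0.17 on the log2 scale.

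**Figure D4:**
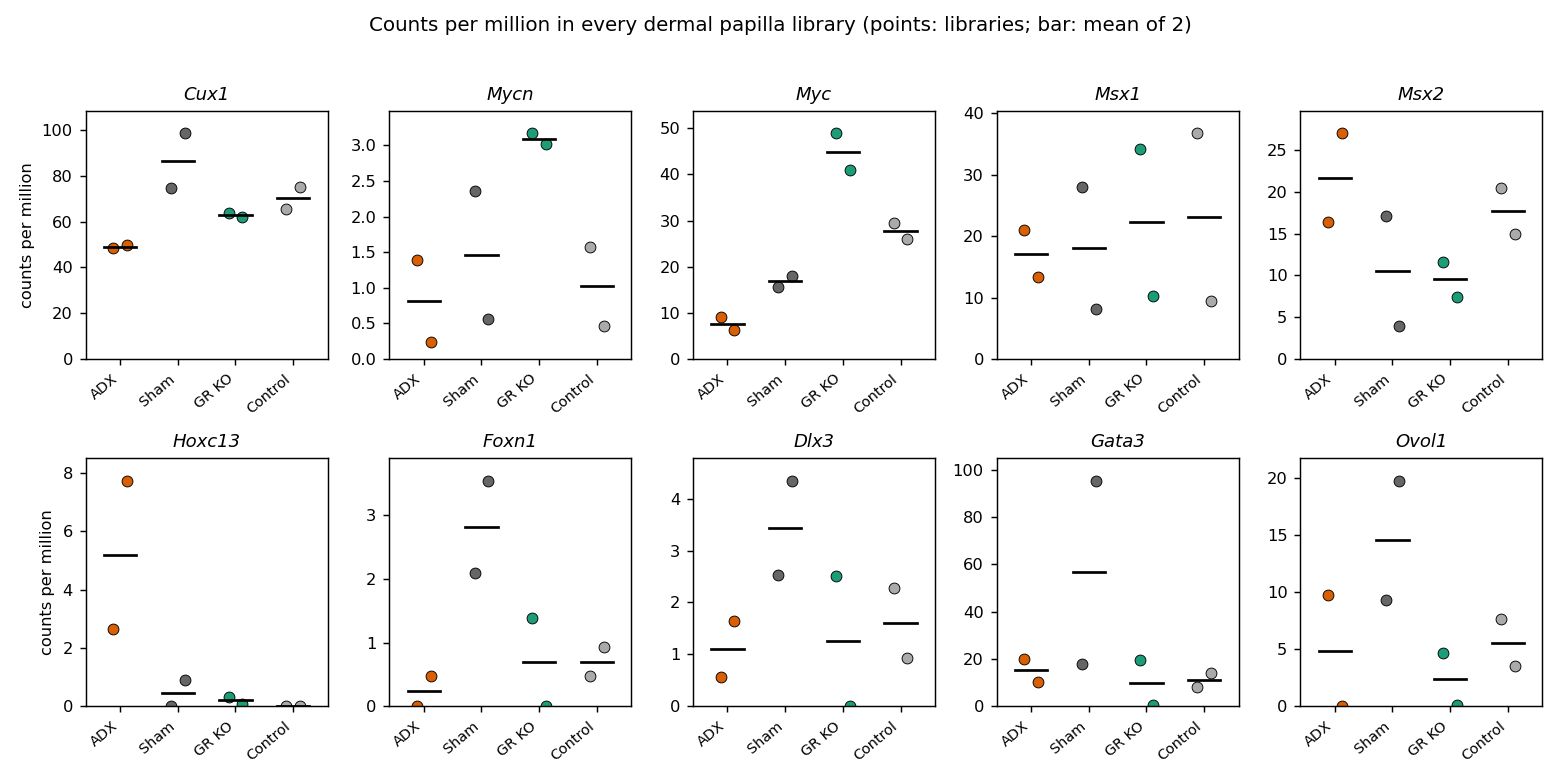
CPM of each of the 10 genes (vertical axes, each from 0) in the 8 DP libraries, grouped along the horizontal axes as ADX, Sham, GR KO and Control; points are libraries and bars the mean of 2. Myc was at 9.03 and 6.33 CPM in ADX and at 48.9 and 41.0 CPM in GR KO, and Foxn1, Dlx3, Gata3 and Ovol1 were all highest in 1 Sham library.

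Msx1 and Msx2, which mesenchyme also expresses, passed no test in DP. Msx1 had 20.98 and 13.4 CPM in ADX, against 28.1 and 8.21 CPM in Sham, and 34.2 and 10.3 CPM in GR KO, against 36.7 and 9.39 CPM in Control, overlapping in both. Msx2 had 16.4 and 26.9 CPM in ADX, against 17.1 and 3.95 CPM in Sham, and 11.6 and 7.45 CPM in GR KO, against 20.4 and 15.0 CPM in Control; the ADX and Sham values overlap, and both GR KO values lie below both Control values. Mycn lay between 0.234 and 3.17 CPM, on 2 to 39 estimated reads, so its interval in GR KO against Control ran from -1.15 to 4.31 on the log2 scale. Hoxc13 had 2.64 and 7.73 CPM in ADX, against 0 and 0.886 CPM in Sham, and was at 0 reads in both Control libraries and at 4 and 1 reads in GR KO.

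The remaining 4 members are epithelial genes, and their DP values are given beside epidermal markers. The 12 genes of differentiated epidermis and upper follicle summed to 545 and 319 CPM in ADX, against 1147 and 4225 CPM in Sham, and to 734 and 62.8 CPM in GR KO, against 2969 and 1085 CPM in Control. Gata3 had 20.2 and 10.1 CPM in ADX, against 17.9 and 95.4 CPM in Sham, and 19.4 and 0.634 CPM in GR KO, against 8.04 and 14.2 CPM in Control. Ovol1 had 9.73 and 0 CPM in ADX, against 9.32 and 19.8 CPM in Sham, and 4.71 and 0.0793 CPM in GR KO, against 7.64 and 3.53 CPM in Control. Dlx3 (0 to 4.35 CPM) and Foxn1 (0 to 3.54 CPM) were lower still. All 4 were highest in the second Sham library, which has the highest epidermal sum, and the second GR KO library, with the lowest sum, held no Dlx3 or Foxn1 read and the lowest Gata3 value. Ovol1 was instead lowest in the second ADX library, at 0 reads, and Foxn1 also had 0 reads in the first ADX library. Neither of these ADX libraries had the lowest epidermal sum. The part of epidermal RNA in these values was not tested. Without the second GR KO library the log2 fold changes of Gata3, Dlx3 and Foxn1 in GR KO against Control turned positive (0.82, 0.64 and 0.99). Of 18 hair shaft and inner root sheath genes tested in DP, 14 were higher and 4 lower in ADX than in Sham. In GR KO against Control the counts were also 14 and 4. By edgeR none rose, and 1, Crym, fell in GR KO. The list summed to 105 to 108 CPM in ADX and 82.2 to 97.3 CPM in Sham. It summed to 54.5 to 125 CPM in GR KO and 142 to 154 CPM in Control. Hoxc13, a regulator of the shaft, lay above Sham in ADX and, on 4 and 1 reads, above Control in GR KO.

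The DP files count single transcripts, so the Cux1 locus could be split there. Of 14 annotated transcripts 5 encode the homeodomain, 6 have a coding sequence without it and 3 have none. Among the 6, Cux1-203 and Cux1-213 are annotated as nonsense-mediated decay transcripts. Cux1-213 took 0 to 254 estimated reads a library, and 246 of the 486 reads of this class in the second GR KO library. Reads of this class are therefore not all from transcripts annotated as protein-coding. Transcripts with the homeodomain took 27.0% and 39.3% of the Cux1 reads in ADX, against 27.3% and 21.3% in Sham, and 21.4% and 24.7% in GR KO, against 26.9% and 21.3% in Control. In both pairs the shares overlap. Those without it took 43.1% and 33.1% in ADX, against 56.0% and 40.9% in Sham, and 67.1% and 62.4% in GR KO, against 65.8% and 70.2% in Control. Shares of reads favour long transcripts: divided by transcript length, the share with the homeodomain was 4.88% to 12.4% across the 8 libraries. The split is an estimate by the authors' quantification from 348 to 1222 reads a library, and such a split was not available for the HFSC counts.

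**Figure D5:**
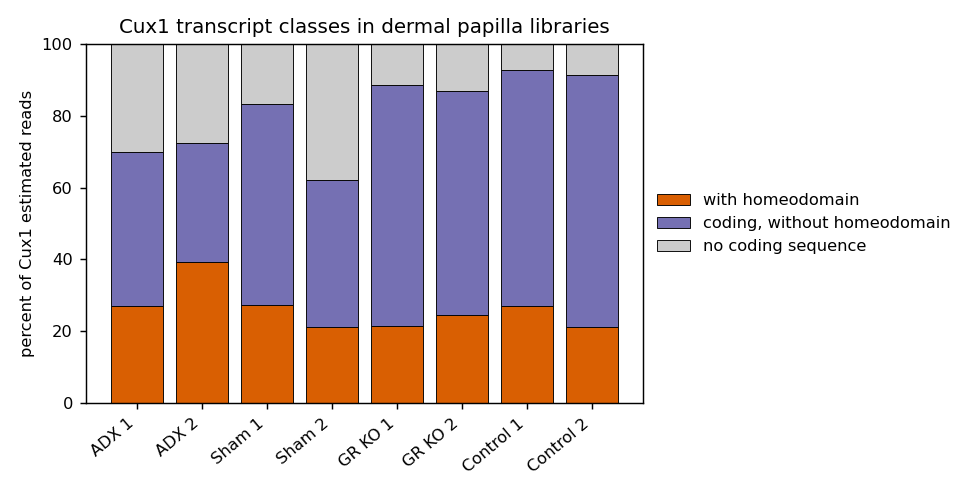
Percent of the Cux1 estimated reads (vertical axis) in transcripts with the homeodomain, coding transcripts without it and transcripts with no coding sequence, as stacked bars for the 8 DP libraries (horizontal axis). The homeodomain share was 21.3% to 39.3%, highest in the second ADX library. The coding class without the homeodomain includes transcripts annotated as nonsense-mediated decay.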

How the data were processed

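Bulk RNA from FACS-purified dermal papilla cells (8 libraries) and hair follicle stem cells (10 libraries) was amplified with the SMART-Seq v4 kit and tagged with Nextera XT, per the labels' protocols. The DP files hold estimated counts per transcript that the authors deposited from Salmon, for 134967 transcripts, of which 150 carry no gene symbol and took at most 0.0752% of a library. The HFSC files hold read counts per gene that the authors deposited from featureCounts 1.6.1, run with a minimum mapping quality of 30 and no strand option, per the file headers. The submitters' processing notes also name Trim Galore 0.4.1, STAR 2.5.3 and DESeq2 1.22.2. The DP estimated counts were summed to symbols with GENCODE M21 and rounded to whole numbers. In the ADX+CORT files 27 gene names had been turned into dates and were restored from their coordinates.

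The count tables were fitted with edgeR 4.0.16 in R 4.3.3 (TMM scaling, filterByExpr, quasi-likelihood test), in 1 fit per cell type over all of its groups, with Benjamini-Hochberg adjustment over all genes tested and a threshold of 0.05. Depth limits low genes: DP libraries hold 6194415 to 13941628 and HFSC libraries 14067139 to 33014976 reads, and edgeR's common biological coefficient of variation between replicates came to 54.0% (DP) and 38.7% (HFSC). CPM use TMM-scaled library sizes, and similar genes were the 3 with the highest Pearson r of log2 CPM (prior count 2) among genes with a mean of at least 5 CPM, without predicted genes and pseudogenes; 1 of them is not reported here. All 10 members are named in every comparison; of each gene list, those past the threshold are named, and otherwise up to 4 with the smallest p. The members and the gene lists were chosen with earlier results of these data known. The fit was tested on simulated data with known changes. The alternatives tried were another tool (DESeq2 1.42.0), no filter on low counts, scaling by median of ratios, fits on fewer groups, the replicate number as a block, protein-coding genes only in DP, CPM on raw totals and leaving out each library; the crossed block was chosen after seeing the data. Same-numbered libraries of the groups compared deviated together with correlations of -0.15 to 0.22 over 2 pairs, and the labels give the numbers no shared source, so the block is an alternative.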

Additional observations from a re-analysis of the deposited data

How the results depend on the processing

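With 2 libraries a group, calls hang on single libraries, and depth limits Hoxc13, Foxn1, Dlx3 and Mycn in DP. The numbers of members called were the same under the alternatives except as follows. Leaving out 1 library gave 0 to 1 in ADX against Sham HFSC and 0 to 2 in GR KO against Control HFSC. Without a filter the count was 1 in ADX against Sham DP (Gata3), 1 in ADX+CORT against ADX (Ovol1) and 1 in ADX+CORT against Sham (Ovol1). It was 5 in GR KO against Control HFSC (Cux1, Mycn, Ovol1, Dlx3 and Foxn1). With DESeq2 it was 1 in ADX+CORT against ADX and 3 in GR KO against Control HFSC. Over all genes, edgeR called 45 in ADX HFSC and 150 in GR KO HFSC, against 805 and 721 with DESeq2 and 888 and 840 without a filter; in ADX+CORT against ADX it called 0, against 1309 with either and 884 with the surgery libraries alone. In DP it called 4 in ADX and 361 in GR KO, against 453 and 1376 with DESeq2 and 894 and 1456 without a filter. ADX+CORT against Sham gave 0, against 58 and 184, and the differences of effects gave 112 in DP and 0 in HFSC, against 1051 and 110 with DESeq2 and 1305 and 256 without a filter. Fitting only the groups compared called 93 genes in ADX HFSC, 0 in ADX DP, 142 in GR KO DP and 2 in ADX+CORT against Sham; the surgery libraries alone gave 146 in ADX HFSC, and protein-coding genes gave 197 for the difference in DP.

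With the replicate number as a block, ADX against Sham HFSC called 0 members (9 genes), ADX against Sham DP called 10 genes, the difference in DP called 196 genes, and the log2 fold changes of Msx1 in ADX DP (0.19) and Foxn1 in GR KO DP (0.13) changed sign. The crossed pairing in ADX DP, chosen after seeing the data, called 62 genes and 0 members.

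Other log2 fold changes that changed sign were of members that passed no test, and the cause was not tested. In ADX DP, Msx1 gave 0.0022 with DESeq2, 0.0090 with median-of-ratios scaling and 0.10 over protein-coding genes. Leaving out 1 library gave these ranges. In ADX DP, Msx1 ran from -0.74 to 1.02 and Mycn from -2.66 to 0.45. In GR KO DP, Dlx3 ran from -7.18 to 0.64, Foxn1 from -5.97 to 0.99, Gata3 from -4.10 to 0.82 and Msx1 from -1.17 to 1.11. In ADX HFSC, Dlx3 ran from -0.024 to 0.71, Myc from -0.16 to 0.11, Hoxc13 from -0.47 to 0.036 and Ovol1 from -0.036 to 0.20. In ADX+CORT against ADX, Gata3 ran from -0.031 to 0.35, Mycn from -0.49 to 0.22 and Myc from -0.12 to 0.29. In ADX+CORT against Sham, Msx1 ran from -0.28 to 0.64 and Myc from -0.15 to 0.26. In GR KO HFSC, Msx2 ran from -0.44 to 0.16 and Hoxc13 from -0.030 to 0.77.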
